A study of Homo sapiens with 12 samples.

Results

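The aryl hydrocarbon receptor pathway was followed here through 7 genes, chosen by symbol from the 57500 genes of the count table: the receptor AHR, its partner ARNT, the feedback genes AHRR and TIPARP, and the enzyme genes CYP1A1, CYP1B1 and ALDH3A1. Each symbol occurred once. RNA was sequenced from MRC5, a single line of human lung fibroblasts, in 4 groups of 3 libraries. Proliferative cells (Prol) were compared with cells made senescent by 20 Gy of X-rays (Sen(IR)), which the study collected 10 to 12 days later, and with irradiated cells that also received UK5099 (Sen(IR+UK5099)) or CTPI2 (Sen(IR+CTPI2)). UK5099 inhibits the mitochondrial pyruvate carrier and was used at 100 µM. CTPI2 inhibits the mitochondrial citrate carrier SLC25A1. The study's methods give 15 or 30 µM for CTPI2, and which of them was sequenced is not given in the sources used here. Inhibitor exposure began on day 1 after the X-rays and lasted 12 days, and the labels name no vehicle for Sen(IR). The comparisons ask what irradiation senescence did to each gene, and what each block of mitochondrial metabolism did to it in cells that were already irradiated.

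AHR is a transcription factor of the bHLH-PAS family that waits in the cytoplasm with HSP90 and the co-chaperone p23 until it binds a small molecule, such as a combustion product, an indole or the tryptophan metabolite kynurenine. It then enters the nucleus, pairs with ARNT and binds DNA at sites built around the letters GCGTG. CYP1A1 and CYP1B1 are its best-known targets and are often read as a sign of its activity, while AHRR competes for ARNT and TIPARP modifies the receptor with ADP-ribose, so that both damp the response.

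Library totals ran from 20597736 to 28245693 counts. Levels are in CPM, counts scaled to the size of each library with TMM (trimmed mean of M-values) factors, and differences are log2 fold changes from edgeR's quasi-likelihood test with Benjamini-Hochberg adjustment over 16251 genes. A gene was called where its adjusted p was under 0.05 and its log2 fold change was over 0.5 in size. The labels number the replicates without naming separate cultures, while the study's legends call its RNA-seq replicates independent. The p-values measure the spread between these libraries, which may be partly technical. Fibroblast markers were abundant, with 8 of 8 above 1 CPM and COL1A2 between 3307 and 7442 CPM. The summed fibroblast list lay between 20724 and 24516 CPM in Prol, 19845 and 20411 in Sen(IR), 17421 and 19191 in Sen(IR+CTPI2), and 10544 and 10987 in Sen(IR+UK5099). In Sen(IR+UK5099) against Sen(IR), 4 of 8 markers were called lower and 0 higher, where 12.1% and 8.76% of all genes were. In Sen(IR) against Prol, COL1A2 (0.53) and THY1 (0.58) were called higher and VIM (-0.79) lower, where 24.8% and 22.4% of all genes were. The summed lists of 6 epithelial, 4 endothelial and 4 immune markers stayed under 7 CPM in every library. The epithelial list lay between 1.08 and 2.23 CPM in all libraries. The immune list lay between 0.902 and 1.36 CPM in Prol and between 4.07 and 6.81 CPM in the irradiated groups. Of its genes, CD14 (a mean of 0.192 CPM in Prol and 3.32 CPM in Sen(IR), a log2 fold change of 4.09) and CD68 (0.923 and 1.68 CPM, 0.85) were called higher. The endothelial list lay between 3.64 and 6.23 CPM in Prol and between 0.736 and 2.72 CPM in the irradiated groups, and its gene KDR was called lower in Sen(IR) (4.21 and 0.949 CPM, -2.13). Within these lists KRT5, SFTPC, CDH5 and CD3E were at or near 0, while others were detected at low levels. EPCAM reached 1.28 CPM (Sen(IR+UK5099) replicate 1), and KRT19 and VWF reached 1.40 and 1.11 CPM (Sen(IR+CTPI2) replicate 2). PTPRC reached 0.31 CPM (Sen(IR+UK5099) replicate 3). The part of these markers in the results was not tested. In bulk RNA, fewer cells of a type and less RNA per cell cannot be told apart.

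The promoters are shown first, for the letters they hold. Only the 250 bases before each annotated start were searched, so sites elsewhere were not covered. The RefSeq promoter table (GRCh38.p14) matched 5 of the 7 genes and held no entry for CYP1B1 or ALDH3A1. It was searched for GCGTG on both strands (CACGC is the same motif on the other strand), in the 250 bases before each annotated start. The motif was found in windows of CYP1A1, AHRR and TIPARP, and these are printed 5′ to 3′ on the gene's strand with the motif in capitals. The CYP1A1 window is chr15:74725529-74725778 on the minus strand, with 1 match 57 to 53 bases before the start. The AHRR window is chr5:321464-321713 on the plus strand, with 1 match 30 to 26 bases before the start. The TIPARP window is chr3:156674340-156674589 on the plus strand, with matches 208 to 204 and 142 to 138 bases before the start.
CYP1A1: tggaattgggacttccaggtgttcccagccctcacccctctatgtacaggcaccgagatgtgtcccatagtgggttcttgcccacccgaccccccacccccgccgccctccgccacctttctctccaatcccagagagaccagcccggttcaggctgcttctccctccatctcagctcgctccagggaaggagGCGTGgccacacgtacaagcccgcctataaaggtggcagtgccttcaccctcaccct
AHRR: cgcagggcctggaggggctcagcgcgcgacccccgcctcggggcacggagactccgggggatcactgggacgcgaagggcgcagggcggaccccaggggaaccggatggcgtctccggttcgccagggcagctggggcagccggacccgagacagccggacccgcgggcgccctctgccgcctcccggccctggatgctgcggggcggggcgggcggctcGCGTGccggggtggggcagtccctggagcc
TIPARP: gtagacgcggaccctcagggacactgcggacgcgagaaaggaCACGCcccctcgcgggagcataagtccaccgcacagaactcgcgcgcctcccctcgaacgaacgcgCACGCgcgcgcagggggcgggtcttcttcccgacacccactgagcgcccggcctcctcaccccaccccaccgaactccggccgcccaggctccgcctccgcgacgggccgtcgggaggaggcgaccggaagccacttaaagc

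Among 35116 promoter windows of this length in the table, 32.2% held at least 1 GCGTG and 10.2% held at least 2, so a match is common and describes the letters only. A further AHRR window held 2 matches, and the windows of AHR and ARNT held none. The further TIPARP windows, chr3:156674676-156674925 and chr3:156676414-156676663, held none either. The longer motif TNGCGTG, which contains GCGTG and was also searched on both strands, occurred in 4.52% of all windows and in the printed AHRR window, and not in the printed CYP1A1 and TIPARP windows.

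The 3 enzyme genes were higher in irradiated cells than in Prol, while AHR did not pass the test and the feedback genes AHRR and TIPARP were lower in Sen(IR) by less than the fold limit. The genes called in Sen(IR) against Prol were CYP1B1, CYP1A1 and ALDH3A1, all higher, which is 3 of 7 members against a background of 24.8% of genes called higher. None of the 7 was called lower, where the background was 22.4%. CYP1A1 and ALDH3A1 passed the filter on low counts only through the irradiated libraries, so those 2 had to differ from Prol and the count of 3 supports nothing by itself. The median log2 fold change of the 7 was 0.20, also with ALDH3A1 set to the lower bound given below, against 0.01 over all genes tested. That median includes the same 2 genes, so it supports nothing by itself either. Members over the filter limit in every library went both ways, with CYP1B1 at 2.25, ARNT at 0.20, AHR at 0.01, AHRR at -0.31 and TIPARP at -0.42. The libraries of Sen(IR) and Prol did not overlap for 6 of 7 members, as for 70.9% of all genes, AHR being the exception.

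CYP1B1 encodes a cytochrome P450 that oxidises polycyclic hydrocarbons, oestradiol and retinoids, and it is the member of the CYP1 family usually found in fibroblasts. The gene (ENSG00000138061, chr2:38066973-38109902, minus strand) stood at 34.0, 54.3 and 39.8 CPM in Prol replicates 1, 2 and 3. In Sen(IR) it stood at 202, 193 and 213 CPM. In Sen(IR+UK5099) it stood at 306, 359 and 384 CPM, and in Sen(IR+CTPI2) at 158, 149 and 197 CPM. All 9 irradiated libraries lay above all 3 Prol libraries, and the UK5099 libraries lay above all others. The mean rose from 42.7 ± 10.4 (SD, n = 3) to 203 ± 10.1 CPM (SD, n = 3) with irradiation, a log2 fold change of 2.25 (SE 0.123) or 4.75-fold, with an edgeR adjusted p of 2.51e-13. It rose again to 350 ± 39.9 CPM (SD, n = 3) with UK5099, by 0.79 on the log2 scale (SE 0.113) or 1.73-fold over Sen(IR), with an edgeR adjusted p of 5.60e-06. With CTPI2 the mean was 168 ± 25.9 CPM (SD, n = 3), -0.27 on the log2 scale relative to Sen(IR), with a 95% interval from -0.51 to -0.04. That difference did not pass after adjustment (unadjusted p = 0.0262, edgeR adjusted p = 0.592), and the libraries of both groups overlapped. The order from high to low was therefore Sen(IR+UK5099), then Sen(IR) and Sen(IR+CTPI2), which were not separated, then Prol.

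Part of the CYP1B1 locus is shared with other genes, and the sources used here do not state whether the counting used strand. In GENCODE 44, 11.3% of the exon bases of CYP1B1 overlap the antisense CYP1B1-AS1, 1.59% overlap RMDN2 and 1.15% overlap RMDN2-AS1. CYP1B1-AS1 was higher in Sen(IR) than in Prol by 2.74 on the log2 scale (SE 0.385, edgeR adjusted p = 1.47e-06), at 20 to 41 counts per library against 3 to 8. Its difference between Sen(IR+UK5099) and Sen(IR) was 0.20 (SE 0.275, edgeR adjusted p = 0.581), where CYP1B1 was called higher. Without strand, reads of the pair cannot be told apart.

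CYP1A1 encodes the cytochrome P450 that most strongly marks receptor activation in many cell types, and its counts here were low. The gene (ENSG00000140465, chr15:74719542-74725536, minus strand) had 2, 3 and 0 counts in Prol replicates 1, 2 and 3, and 20, 31 and 19 counts in Sen(IR). It had 11, 11 and 11 counts in Sen(IR+UK5099) and 25, 27 and 36 counts in Sen(IR+CTPI2). The 4 groups fell into 3 levels, with Prol lowest, the UK5099 libraries between, and the Sen(IR) and CTPI2 libraries highest and overlapping. The ratio of Sen(IR) to Prol over the summed counts was 16.1, with an exact 95% interval from 6.59 to 51.2 that covers counting error only, and the edgeR adjusted p was 1.56e-06. Because CYP1A1 passed the count filter only through irradiated libraries, that p is no support by itself. The ratio to Prol was 6.32 for Sen(IR+UK5099) (95% interval 2.45 to 20.7) and 18.5 for Sen(IR+CTPI2) (95% interval 7.63 to 58.3). In CPM the Sen(IR) mean was 1.10 ± 0.323 (SD, n = 3) and the Sen(IR+UK5099) mean 0.430 ± 0.0239 (SD, n = 3). CYP1A1 fell by 1.34 on the log2 scale with UK5099 (SE 0.392, 2.53-fold lower, edgeR adjusted p = 0.00765). The call was lost when Sen(IR) replicate 2 was left out, at -1.08 with an edgeR adjusted p of 0.0567. With CTPI2 the mean was 1.26 ± 0.262 CPM (SD, n = 3), a difference from Sen(IR) of 0.20 on the log2 scale with a 95% interval from -0.52 to 0.91 (edgeR adjusted p = 0.961). These counts therefore do not exclude a change of a size within that interval.

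ALDH3A1 encodes an aldehyde dehydrogenase of the classical receptor-controlled gene battery. The gene (ENSG00000108602, chr17:19737984-19748943, minus strand) had 0 counts in each Prol library, which allows a level of up to 0.128, 0.129 and 0.112 CPM in replicates 1, 2 and 3, for 3 counts per library. It had 10, 10 and 13 counts in Sen(IR), 17, 18 and 18 in Sen(IR+UK5099), and 18, 21 and 22 in Sen(IR+CTPI2). The groups did not overlap with Prol. Against that floor, ALDH3A1 was at least 4.23-fold higher in Sen(IR) (edgeR adjusted p = 2.44e-06), at least 5.62-fold higher in Sen(IR+UK5099) and at least 7.08-fold higher in Sen(IR+CTPI2). Because ALDH3A1 passed the count filter only through irradiated libraries, that p is no support by itself. The mean level was 0.519 ± 0.104 CPM (SD, n = 3) in Sen(IR), 0.690 ± 0.0194 in Sen(IR+UK5099) and 0.870 ± 0.0816 in Sen(IR+CTPI2). The 3 irradiated groups did not overlap in CPM, but none of their differences passed the test. CTPI2 against Sen(IR) gave 0.74 on the log2 scale with a 95% interval from -0.01 to 1.5 (edgeR adjusted p = 0.698), and UK5099 against Sen(IR) gave 0.41 (SE 0.369, edgeR adjusted p = 0.388).

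**Figure D1:**
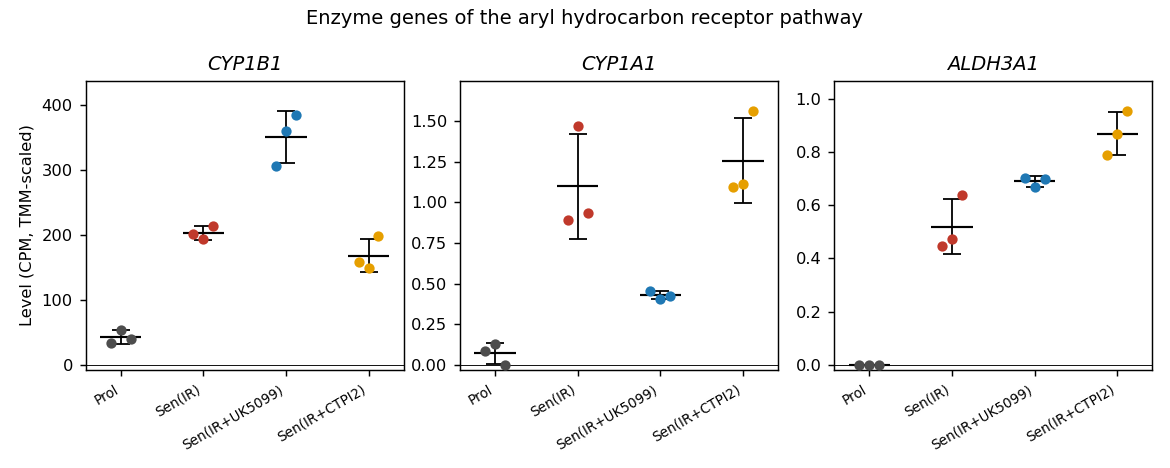
Levels of the 3 enzyme genes in CPM (TMM-scaled, linear axes that start at 0 and differ between panels) in each of the 12 libraries; points are libraries, horizontal lines group means and bars 1 SD (n = 3). CYP1B1 is highest in the UK5099 libraries (306 to 384 CPM), where CYP1A1 (0.408 to 0.455 CPM) lies below the Sen(IR) and CTPI2 libraries, and ALDH3A1 is at 0 in all 3 Prol libraries.

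AHR itself could not be told apart between any of the 4 groups. The gene (ENSG00000106546, chr7:16916359-17346152, plus strand) stood at 26.4, 29.4 and 27.5 CPM in Prol replicates 1, 2 and 3, and at 26.7, 25.4 and 32.0 CPM in Sen(IR). It stood at 27.0, 28.4 and 34.1 CPM in Sen(IR+UK5099) and at 26.2, 28.5 and 28.3 CPM in Sen(IR+CTPI2). Every pair of groups overlapped. The difference between Sen(IR) and Prol was 0.01 on the log2 scale with a 95% interval from -0.18 to 0.20 (edgeR adjusted p = 0.911). UK5099 against Sen(IR) gave 0.09 (SE 0.0914, edgeR adjusted p = 0.435) and CTPI2 against Sen(IR) gave -0.02 (SE 0.0925, edgeR adjusted p = 0.989). These are amounts of RNA and say nothing of the receptor's location or activity. In GENCODE 44 a second protein-coding gene, ENSG00000283321, shares 29.5% of the exon bases of AHR, and it was listed at 0 counts in every library.

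ARNT encodes the partner that AHR needs on DNA and that the hypoxia factors also use. The gene (ENSG00000143437, chr1:150809713-150876708, minus strand) stood at 48.2, 53.6 and 48.7 CPM in Prol replicates 1, 2 and 3. It stood at 57.0, 59.6 and 56.5 CPM in Sen(IR), at 70.7, 68.2 and 66.5 CPM in Sen(IR+UK5099), and at 54.5, 59.2 and 55.3 CPM in Sen(IR+CTPI2). The UK5099 libraries lay above all others, and the Prol libraries below all others. The steps were small, at 0.20 on the log2 scale from Prol to Sen(IR) (SE 0.0599, edgeR adjusted p = 0.00497) and 0.25 from Sen(IR) to Sen(IR+UK5099) (SE 0.0589, edgeR adjusted p = 0.00163). Both passed the p limit but not the fold limit, so neither was called. CTPI2 gave -0.03 against Sen(IR) (SE 0.0596, edgeR adjusted p = 0.959).

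TIPARP, whose product ADP-ribosylates the receptor, was the most abundant of the regulators. The gene (ENSG00000163659, chr3:156673235-156706770, plus strand) stood at 115, 108 and 109 CPM in Prol replicates 1, 2 and 3, and at 82.1, 86.2 and 79.1 CPM in Sen(IR). It stood at 95.1, 95.7 and 91.0 CPM in Sen(IR+UK5099) and at 91.3, 90.1 and 96.3 CPM in Sen(IR+CTPI2). Prol was highest and Sen(IR) lowest, with both inhibitor groups between them and overlapping each other. Sen(IR) minus Prol was -0.42 on the log2 scale (SE 0.0533, edgeR adjusted p = 3.03e-07), under the fold limit. UK5099 against Sen(IR) gave 0.19 (SE 0.0535, edgeR adjusted p = 0.00658), also under the fold limit. CTPI2 against Sen(IR) gave 0.17 (SE 0.0537, unadjusted p = 0.00524, edgeR adjusted p = 0.317).

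AHRR encodes the repressor of the receptor. The gene (ENSG00000063438, chr5:321714-438291, plus strand) stood at 57.3, 60.8 and 51.6 CPM in Prol replicates 1, 2 and 3, at 47.2, 46.7 and 43.2 CPM in Sen(IR), at 53.8, 50.2 and 52.6 CPM in Sen(IR+UK5099), and at 44.4, 49.8 and 46.6 CPM in Sen(IR+CTPI2). Sen(IR) lay below Prol without overlap, and the UK5099 libraries lay above Sen(IR). Sen(IR) minus Prol was -0.31 on the log2 scale (SE 0.0677, edgeR adjusted p = 3.79e-04), and UK5099 against Sen(IR) gave 0.19 (SE 0.0678, edgeR adjusted p = 0.0250), both under the fold limit. CTPI2 against Sen(IR) gave 0.04 (SE 0.0685, edgeR adjusted p = 0.961). In GENCODE 44 the read-through gene PDCD6-AHRR covers 58.7% of the exon bases of AHRR, and its identifier was not among those of the count table, so the level of AHRR is uncertain.

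**Figure D2:**
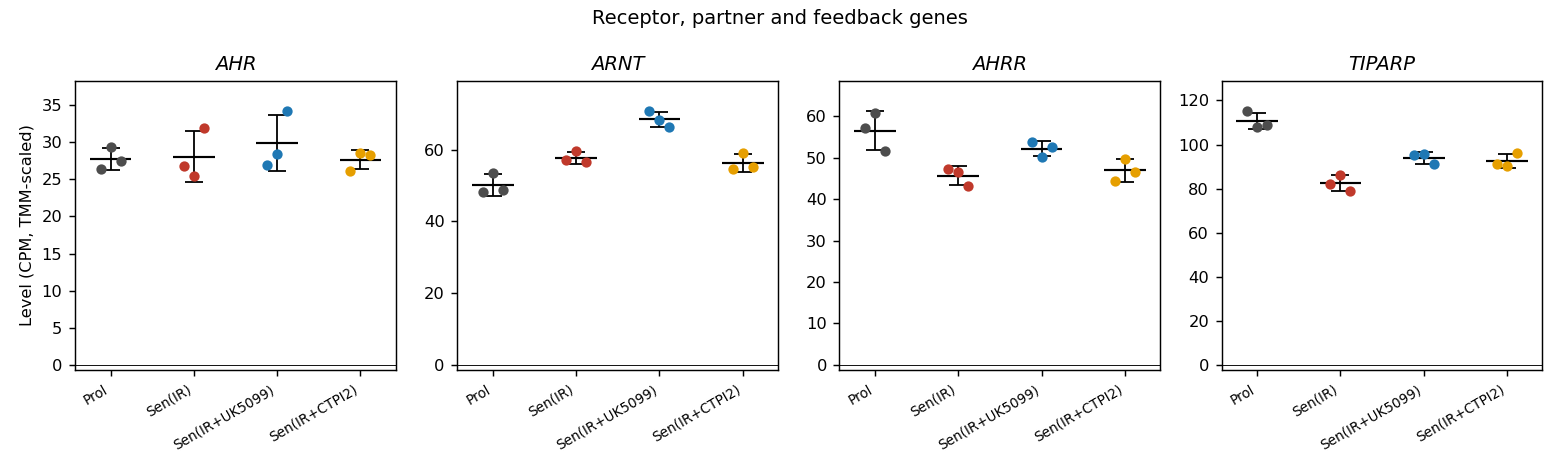
Levels of the receptor gene AHR, its partner ARNT and the feedback genes AHRR and TIPARP in CPM (TMM-scaled, linear axes that start at 0 and differ between panels) in each of the 12 libraries; points are libraries, horizontal lines group means and bars 1 SD (n = 3). The 4 AHR groups overlap, ARNT is highest in Sen(IR+UK5099), and AHRR and TIPARP are lowest on average in Sen(IR).

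Set against each other per kilobase of exon, the members changed rank. In Prol the level per kilobase was highest for TIPARP at 23.1 CPM, followed by ARNT at 7.78, CYP1B1 at 7.09, AHRR at 5.97, AHR at 3.45 and CYP1A1 at 0.0212 CPM, with ALDH3A1 at 0. The order depended on the length used. When the full level was divided by only the exon bases not shared with another gene, AHRR at 14.5 stood above CYP1B1 at 8.15 and ARNT at 7.78 in Prol. The counts were not limited to those bases, so the AHRR value is too high if reads in shared bases were counted for it. In Sen(IR) CYP1B1 came first at 33.6 CPM per kilobase, followed by TIPARP at 17.2. CYP1B1 reached 58.0 CPM per kilobase in Sen(IR+UK5099) and 27.9 in Sen(IR+CTPI2), while CYP1A1 stayed at 0.326 CPM per kilobase in Sen(IR). CYP1B1 was thus the CYP1 gene that carried most of the RNA in these fibroblasts in every group.

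With UK5099 the CYP1 pair moved in opposite directions in irradiated cells, and with CTPI2 no member passed the test. In Sen(IR+UK5099) against Sen(IR), 1 of 7 members was called higher (CYP1B1) and 1 lower (CYP1A1), where the backgrounds were 8.76% and 12.1% of genes. The libraries of these groups did not overlap for 6 of 7 members, against 56.6% of all genes tested, so a gap between the groups was common. The median log2 fold change of the 7 was 0.19 against 0.01 over all genes. In Sen(IR+CTPI2) against Sen(IR), 0 of 7 members were called, where the background was 0.166% (27 genes). DESeq2 called none of them either, and gave no adjusted p for CYP1A1 and ALDH3A1. At an unadjusted p under 0.05, edgeR counted 1182 genes, among them CYP1B1 and TIPARP, both under the fold limit. TIPARP and ALDH3A1 were the 2 members whose libraries did not overlap, against 15.1% of genes. Both inhibitor comparisons share the Sen(IR) libraries.

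The inhibitor groups were also compared directly. CYP1B1 was higher in Sen(IR+UK5099) than in Sen(IR+CTPI2) by 1.06 on the log2 scale (SE 0.114, 2.08-fold, edgeR adjusted p = 1.02e-07), and CYP1A1 was lower by a log2 fold change of -1.54 (SE 0.381, 2.90-fold lower, edgeR adjusted p = 0.00229). That was 1 of 7 members called higher and 1 lower, where the backgrounds were 8.2% and 11.7%, and 5 of 7 members did not overlap between these groups, as for 53.6% of genes. ARNT was higher by 0.28 (SE 0.0587, edgeR adjusted p = 4.81e-04), under the fold limit. The other members gave 0.11 for AHR, 0.15 for AHRR, 0.02 for TIPARP and -0.33 for ALDH3A1, with edgeR adjusted p-values from 0.0715 to 0.784. Against Prol, CYP1B1, CYP1A1 and ALDH3A1 were called higher in both inhibitor groups, 3 of 7 members where the backgrounds were 26.9% for Sen(IR+UK5099) and 24.8% for Sen(IR+CTPI2). Here too CYP1A1 and ALDH3A1 had passed the filter only through irradiated libraries, so these counts support nothing by themselves.

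**Figure D3:**
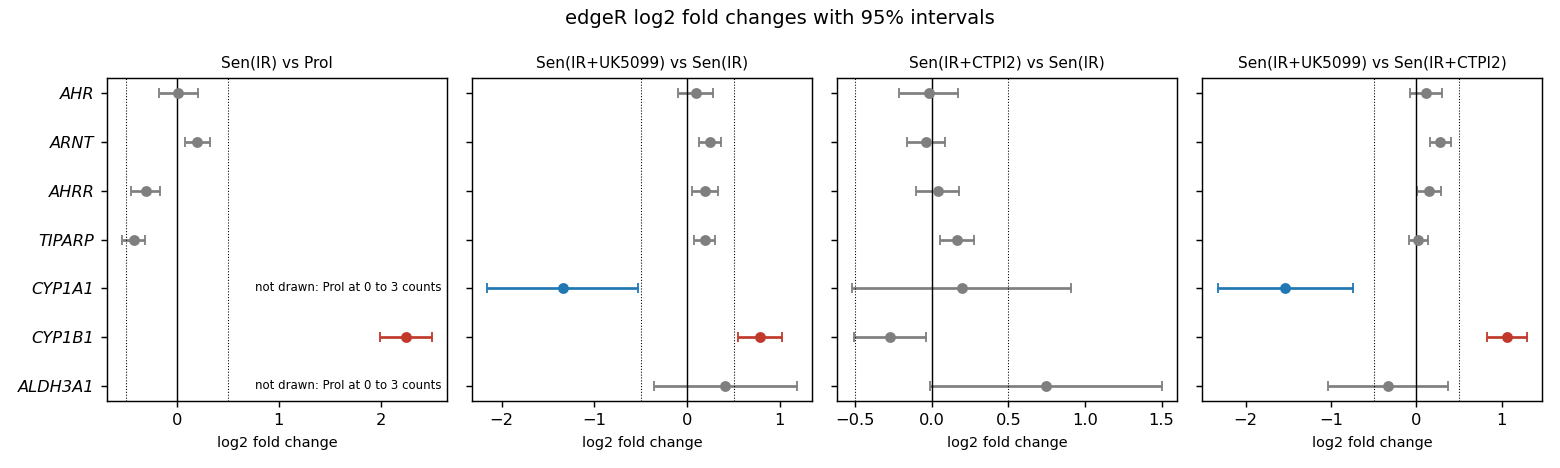
Log2 fold changes of the 7 members (points) with 95% intervals (bars) from edgeR in 4 comparisons, with horizontal axes that differ between panels; red marks a gene called higher, blue one called lower, grey one not called, and dotted lines the fold limit of 0.5. CYP1A1 and ALDH3A1 are not drawn against Prol because Prol had 0 to 3 counts; CYP1B1 and CYP1A1 lie on opposite sides of 0 in both UK5099 comparisons, and all CTPI2 points are grey.

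Around the 7 members, 4 lists of genes were followed, and the backgrounds given above for each comparison apply to them too. Genes for the proteins that hold and turn over the receptor were mostly lower in Sen(IR). Of 6 such genes, 4 were called lower (2 with upper-quartile scaling) and 1 higher against Prol, with a median log2 fold change of -0.56 against 0.01 over all genes. PTGES3, which encodes the co-chaperone p23, lay between 482 and 550 CPM in Prol but between 294 and 301 CPM in Sen(IR), a log2 fold change of -0.79 (SE 0.0501, edgeR adjusted p = 3.68e-12). CUL4B, a scaffold of the ubiquitin ligase in which the receptor takes part, gave -0.65. The HSP90 genes gave -0.61 (HSP90AB1) and -0.51 (HSP90AA1), and the call of HSP90AA1 was lost without Prol replicate 1 (-0.48) or Prol replicate 3 (-0.49). STUB1, a ubiquitin ligase that works with chaperones, was called higher at 0.61. With either inhibitor, 0 of these 6 were called against Sen(IR). With UK5099, HSP90AA1 gave 0.43 (SE 0.0498, edgeR adjusted p = 2.84e-07), under the fold limit. PTGES3 gave 0.24 (edgeR adjusted p = 5.04e-04) and CUL4B 0.22 (edgeR adjusted p = 0.00284), also under it. The rest of this list did not pass the p limit with UK5099.

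Relatives of AHR and ARNT in the bHLH-PAS family and their coactivators formed a list of 16 genes, of which 12 were tested. In Sen(IR) against Prol, 4 were called lower (2 with upper-quartile scaling) and 0 higher (1 with upper-quartile scaling), with a median of -0.36. SIM2, a developmental member of the family, gave -0.85. The clock genes ARNTL2 and ARNTL gave -0.69 and -0.50, and ARNT2, the close relative of ARNT, gave -0.60. The ARNTL value lay at the fold limit, and its call was lost without Prol replicate 1 (-0.49), Prol replicate 3 (-0.49), Sen(IR) replicate 2 (-0.45) or Sen(IR) replicate 3 (-0.46). With UK5099, 2 of 12 were called higher than in Sen(IR) and 0 lower. ARNT2 was at 48.0 to 54.7 CPM in Sen(IR+UK5099) against 32.9 to 34.5 CPM in Sen(IR), a log2 fold change of 0.60 (SE 0.0645, edgeR adjusted p = 9.04e-08). NCOA2, a coactivator of nuclear receptors that AHR also uses, rose by 0.57. With CTPI2, 0 of 12 were called.

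Other genes that the receptor can induce, taken as a list of 15, did not move as a block. Only 6 had enough counts to be tested, and 9 were under 1 CPM in every library of each group, the UGT1A and GSTA genes and CYP1A2 among them. In Sen(IR), 3 of 6 were called higher than in Prol and 0 lower, with a median of 0.44: SERPINB2, a plasminogen activator inhibitor, at 2.00, the growth factor EREG at 0.77, and NFE2L2, the regulator of the oxidant response, at 0.68. NQO1, a quinone reductase that NFE2L2 also controls, was lower in Sen(IR) without overlap, at a mean of 593 CPM against 773 in Prol. Its log2 fold change was -0.38 (SE 0.0471, edgeR adjusted p = 2.22e-07), under the fold limit. With UK5099, 4 of 6 were called lower than in Sen(IR) and 1 higher, with a median of -1.0. SERPINB2 fell from 68.9, 60.8 and 72.1 CPM in Sen(IR) replicates 1, 2 and 3 to 3.02, 4.67 and 4.92 CPM in Sen(IR+UK5099), a log2 fold change of -3.99 (SE 0.144, 15.9-fold lower, edgeR adjusted p = 7.49e-16). CYP2S1, another cytochrome P450, fell from 12.9, 12.7 and 11.6 CPM to 1.28, 1.78 and 1.94 CPM, a log2 fold change of -2.89 (SE 0.135, edgeR adjusted p = 7.21e-14). The drug exporter ABCG2 gave -1.30 and EREG -0.70. With UK5099 NQO1 moved the other way, from 604, 576 and 598 CPM to 895, 923 and 883 CPM, a log2 fold change of 0.60 (SE 0.0472, edgeR adjusted p = 5.50e-10). So among the enzyme genes and this list, CYP1B1 and NQO1 were called higher with UK5099 while CYP1A1, CYP2S1, ABCG2, SERPINB2 and EREG were called lower. Not called were ALDH3A1 at 0.41, NFE2L2 at 0.32, and the feedback genes AHRR and TIPARP at 0.19 each. With CTPI2, 0 of 6 were called. NQO1 gave 0.33 against Sen(IR) (SE 0.0471, edgeR adjusted p = 4.33e-04), under the fold limit.

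The route that makes, clears and imports kynurenine, an internal ligand of the receptor, held 14 genes, of which 11 were tested. Against Prol, 3 were called higher in Sen(IR) and 2 lower, with a median of 0.31. QPRT, which carries the route on to NAD, rose from 6.70, 10.9 and 8.66 CPM in Prol to 75.0, 74.3 and 71.4 CPM, a log2 fold change of 3.07 (SE 0.0966, edgeR adjusted p = 1.39e-17). TDO2, which opens the tryptophan ring, rose by 1.14 from a low level (at most 1.07 CPM in Prol and at most 2.45 CPM in Sen(IR)), and KYNU, which degrades kynurenine, rose by 1.05. SLC7A5, the importer subunit for large neutral amino acids and kynurenine, went from 119, 139 and 119 CPM to 32.2, 26.8 and 26.2 CPM, a log2 fold change of -2.14 (SE 0.0919, edgeR adjusted p = 3.21e-15). CCBL1, a kynurenine aminotransferase, gave -0.66, and its call was lost without Sen(IR) replicate 2 (-0.42).

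With UK5099, 3 of these 11 were called higher than in Sen(IR) and 2 lower, with a median of 0.17. KYNU fell from between 22.4 and 26.6 CPM in Sen(IR) to 5.75, 6.45 and 5.08 CPM, a log2 difference of -2.10 (SE 0.114, edgeR adjusted p = 1.14e-12), to below its level in Prol. SLC7A5 fell further, by a log2 fold change of -0.90, while SLC3A2, the heavy chain of the same importer, rose by 0.75. CCBL2, another kynurenine aminotransferase, rose by 0.67, and TDO2 by 0.85 (edgeR adjusted p = 0.00472). The TDO2 call was lost without Sen(IR+UK5099) replicate 2, at 0.61 with an edgeR adjusted p of 0.0521. With CTPI2, 0 of 11 were called. In the direct comparison of the inhibitor groups, 5 of 11 were called higher with UK5099 and 2 lower, and the 5 became 3 without Sen(IR+UK5099) replicate 2, where TDO2 and AADAT lost their calls.

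**Figure D4:**
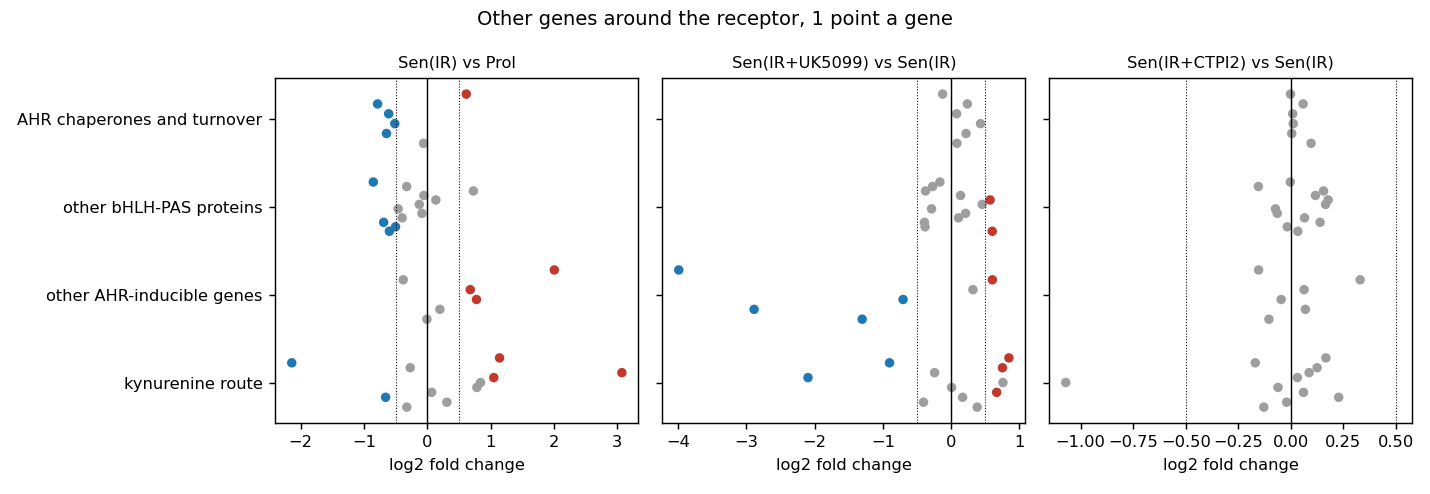
Log2 fold changes from edgeR (horizontal axes, which differ between panels) of the genes tested in 4 lists around the receptor, 1 point a gene, in 3 comparisons; red marks a gene called higher, blue one called lower, grey one not called, and dotted lines the fold limit of 0.5. No point is called in the CTPI2 panel, and in the UK5099 panel 4 of the 6 other inducible genes lie on the lower side.

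The members' patterns over the 12 libraries are a description only, since the libraries share 4 groups. By Pearson's r of log2(CPM + 0.5), the CYP1B1 pattern was nearest to SC5D (0.996) and FAM171B (0.993), that of CYP1A1 to GABRA2 (0.981) and TAPBPL (0.978), and that of ALDH3A1 to RMDN1 (0.980) and DIRAS2 (0.978). Among the members, r was 0.88 between CYP1B1 and ARNT, 0.87 between CYP1B1 and ALDH3A1, 0.80 between CYP1A1 and ALDH3A1 and 0.60 between CYP1B1 and CYP1A1. AHRR went with TIPARP (0.78). Both of these feedback genes had a negative r with every enzyme gene, from -0.78 (AHRR with CYP1A1) to -0.49 (AHRR with CYP1B1). AHR had no r over 0.31 with any other member.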

How the data were processed

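RNA of 12 MRC5 libraries was sequenced as paired reads. Per the submitters' processing notes, the authors used Trimmomatic (0.36), STAR (2.5.2b) and featureCounts of Subread (1.5.2) with GRCh38; the strand setting is not given in the sources used here. The deposited values are raw counts per gene, unnormalised, for 57500 genes. Groups followed the labels, with 3 libraries each. From the counts, edgeR (4.0.16, R 4.3.3) filterByExpr (minimum count 10) kept 16251 genes, scaled by TMM, and a quasi-likelihood model of group was fitted over all 12 libraries and tested on simulated data. Common dispersion was 0.00374. Exact intervals and floors of 3 counts cover counting error only. Genes were called at an adjusted p under 0.05 and an absolute log2 fold change over 0.5. Alternatives were DESeq2 (1.42.0), scaling by RLE or upper quartile, all genes unfiltered, 2 groups only, a replicate block, unadjusted p, a log2 limit of 1 and each library left out.

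The members and lists were chosen with earlier results of these data known. Named were all members, up to 6 called genes a list and comparison by size of change, genes overlapping a member, markers, and the 2 nearest patterns of each called member. NQO1 under CTPI2 and in Sen(IR), and genes in groups below the limits, were named after their values were seen. So were HSP90AA1, PTGES3, CUL4B and NFE2L2 under UK5099. The values of 1 listed gene are not reported here. Chi-square differences between replicates exceeded sampling noise in every pair, at 2.24 to 12.5 per gene.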

Additional observations from a re-analysis of the deposited data

How the results depend on the processing

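The number of members called stayed as reported under the alternatives run, with exceptions in 2 comparisons. In Sen(IR+UK5099) against Prol upper-quartile scaling called 4 instead of 3. In Sen(IR+UK5099) against Sen(IR), 1 instead of 2 was called with a log2 limit of 1 and leaving out 1 library gave 1 to 2. CYP1A1 lost its call there without Sen(IR) replicate 2. The log2 limit of 1 left 4030 genes called (main 7677) in Sen(IR) against Prol, 4028 (7599) in Sen(IR+CTPI2) against Prol, 4967 (8632) in Sen(IR+UK5099) against Prol, 1511 (3386) in Sen(IR+UK5099) against Sen(IR), 1417 (3236) between the inhibitor groups and 11 (27) in Sen(IR+CTPI2) against Sen(IR). That last count was 46 without a filter, 296 (edgeR) and 287 (DESeq2) at unadjusted p, and 15 to 21 with 1 library left out, lowest without Sen(IR+CTPI2) replicate 2 (15) and Sen(IR) replicate 3 (16); the cause was not tested. CYP1B1 in Sen(IR+CTPI2) against Sen(IR) had an adjusted p of 6.37e-04 without a filter, at -0.28, still under the fold limit.

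Small values changed sign. For AHR, Sen(IR) minus Prol was -0.00212 with 2 groups only and -0.0906 to 0.0783 with 1 library left out. CTPI2 minus Prol was 0.00213 (DESeq2), 0.00242 (RLE), 0.11 (upper-quartile) and -0.0390 to 0.0366 with 1 left out. With 1 left out, AHR ran from -0.0839 to 0.0850 for CTPI2 minus Sen(IR), from -0.0150 to 0.196 for UK5099 minus Sen(IR) and from -0.00216 to 0.172 for UK5099 minus Prol, and AHRR from -0.00587 to 0.0773 for CTPI2 minus Sen(IR). Upper-quartile scaling shifted the median of all genes in Sen(IR) against Prol to 0.13, and gave 0.0245 for AHRR and 0.59 for ARNT, then called, in UK5099 minus Prol.

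Libraries with the same replicate number deviated together little, if at all (r from -0.0944 to 0.0612). Still, 7 of 12 correlated best with a library of their own number, and whether they share a weak deviation was not tested. The replicate block changed no member call and gave 7649 genes called in Sen(IR) against Prol, 3360 in Sen(IR+UK5099) against Sen(IR) and 25 in Sen(IR+CTPI2) against Sen(IR). No member symbol was repeated, so summing identifiers was not run.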
